A study of Drosophila melanogaster with 8 samples.

Results

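SIN3 peaks were examined on chromosome 4, on the Het scaffolds and in the stretches of 4 chromosome arms next to the centromere, which are called pericentric here. SIN3 is a large scaffold protein that brings histone deacetylases to chromatin, and a single Drosophila gene, Sin3A, encodes isoforms that differ at the C-terminus. Chromosome 4 is the small dot chromosome, whose genes lie among repeats and heterochromatin protein 1. Pericentric heterochromatin is rich in repeats and poor in genes, yet it holds active genes. The Het scaffolds are the assembled heterochromatic sequences of dm3, the genome build of the files.

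A member was any peak of the unfiltered lists that started on chromosome 4, on a scaffold ending in Het, on 2L from 21900000, on 3L from 22900000, on X from 21900000, or on 3R below 400000. This rule used position alone. It gave 160 of 9011 peaks for SIN3 187HA and 179 of 8862 for SIN3 220HA, that is 339 of 17873 in both lists. Chromosome 4 held 46 SIN3 187HA and 55 SIN3 220HA peaks, the Het scaffolds 22 and 33, the 2L stretch 26 and 27, the 3L stretch 18 and 20, the 3R stretch 39 and 33, and the X stretch 9 and 11. Neither list had a peak on the unplaced sequence or on YHet. Joined where they overlapped by 1 bp, the members formed 207 loci.

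The study mapped where each isoform binds by chromatin immunoprecipitation with an antibody to the HA epitope tag, followed by sequencing, in Drosophila S2 cells, an embryonic line. 1 stably transfected line expressed HA-tagged SIN3 187 and the other HA-tagged SIN3 220, both from a metallothionein promoter, and each had 2 HA ChIP samples and 2 inputs. The study's methods give copper sulfate induction for the SIN3 187HA line alone, since the promoter was leaky in the SIN3 220HA line, and a lower level of endogenous SIN3 220 in the induced line. Isoform, line and induction therefore cannot be told apart, and with 1 list per isoform no test between isoforms over replicates could be made.

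The authors joined the replicates before calling peaks, so every interval here is a 95% interval of counting error over peaks, not over cultures, and intervals were not adjusted for the number of stretches. Neighbouring peaks are not independent of each other. Fold enrichment is the ChIP pileup at the summit (the base of highest signal) over its input-based background. A peak is called kept where it is also in the authors' filtered list, which required reproducibility between replicates and at least 3-fold enrichment. The lists hold no histone mark or heterochromatin protein, so the heterochromatic label was not checked in these cells. The files name no genes and no annotation of their build was used, so sites are given by position.

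Fewer of the member peaks were kept than of the peaks elsewhere. For SIN3 187HA, 53 of 160 members (33.1%, interval 25.9 to 41.0) were kept against 54.4% of the whole list. The rest of the list stood at 54.8%, a difference of -21.7 points (interval -28.6 to -14.0). For SIN3 220HA, 85 of 179 members (47.5%, 40.0 to 55.1) were kept against 65.6% of the whole list, a difference from the rest of -18.4 points (-25.7 to -11.1). Neither interval of the difference reached 0.

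**Figure D1:**
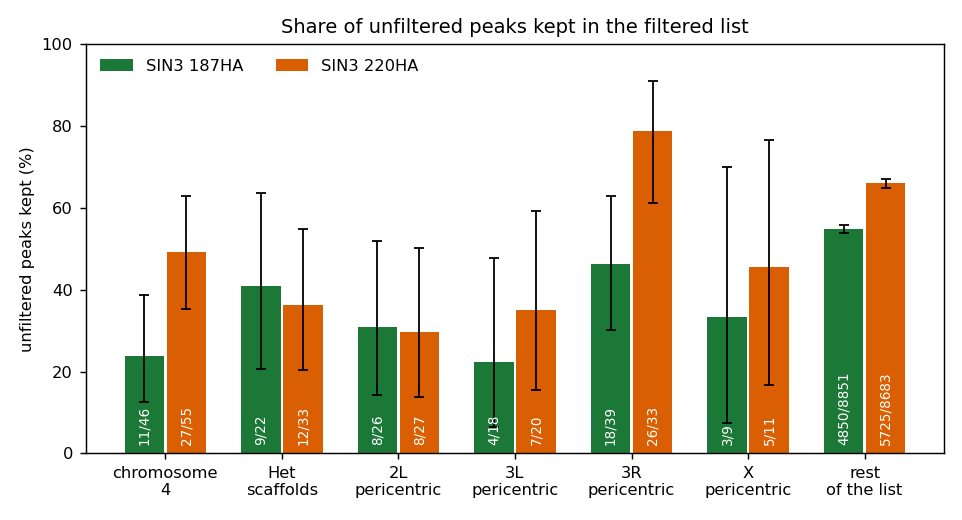
Share of unfiltered peaks kept (vertical axis, %) by stretch for SIN3 187HA (green) and SIN3 220HA (orange), with exact 95% Clopper-Pearson intervals and the counts printed in each bar. Chromosome 4 stood at 23.9% and 49.1%, and the 3R stretch, at 46.2% and 78.8%, was the highest stretch in each list.

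In both lists the interval of the difference lay below 0 on chromosome 4 and in the 2L and 3L stretches. In the 3R stretch it included 0 in both lists. On chromosome 4, 11 of 46 SIN3 187HA peaks (23.9%, 12.6 to 38.8) were kept, a difference from the rest of -30.9 points (-40.9 to -16.8). For SIN3 220HA it was 27 of 55 (49.1%, 35.4 to 62.9), a difference of -16.8 points (-29.6 to -3.97). In the 2L stretch 8 of 26 and 8 of 27 were kept, and in the 3L stretch 4 of 18 and 7 of 20, with intervals of the difference below 0 in each case. On the Het scaffolds 9 of 22 SIN3 187HA peaks were kept, with an interval of the difference that reached 0 (-31.6 to 6.50), and 12 of 33 SIN3 220HA peaks, with one that did not (-43.8 to -12.5). The X stretch, with 3 of 9 and 5 of 11, had too few peaks to be set apart from the rest. In the 3R stretch 18 of 39 (46.2%) and 26 of 33 (78.8%) were kept, differences of -8.64 points (-23.3 to 6.67) and 12.9 points (-3.71 to 23.4). Without the 3R stretch, 35 of 121 SIN3 187HA members (28.9%) and 59 of 146 SIN3 220HA members (40.4%) were kept.

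Every member that was not kept lay below 3-fold, below the lowest -log10 p seen among kept peaks, or below both. The authors filtered on reproducibility and fold, so this p-value floor is a description of the kept peaks. Kept SIN3 187HA peaks began at a -log10 p of 21.6, and kept SIN3 220HA peaks at 21.9. Of the 107 SIN3 187HA members not kept, 72 lay below both this value and 3-fold, 33 below the p-value strength alone and 2 below 3-fold alone. Of the 94 for SIN3 220HA the counts were 63, 18 and 13. The removed peaks of the rest fell in the same classes, so this is not particular to the members. Of 4001 for SIN3 187HA, 2452 lay below both, 1515 below the p-value strength alone, 32 below 3-fold alone and 2 below neither. Of 2958 for SIN3 220HA these counts were 2171, 644, 143 and 0. Among chromosome 4 peaks of at least 3-fold, 11 of 25 (44.0%, 24.4 to 65.1) were kept for SIN3 187HA, against 76.2% in the rest. For SIN3 220HA it was 73.0% (55.9 to 86.2) against 89.9%. In the other stretches, with 6 to 29 such peaks each, the SIN3 187HA shares ran from 50% (X) to 80% (2L). The SIN3 220HA shares there ran from 80% (2L) to 100% (3L). Over all unfiltered SIN3 187HA peaks, the upper quartile of fold was 3.83 on chromosome 4 and 6.29 in the rest. Fold was not matched above 3-fold, so its part in these differences was not tested.

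Enrichment at the members was lower than elsewhere, and outside the 3R stretch the peaks were also narrower. The median fold enrichment was 3.16 over the SIN3 187HA members and 3.17 over the SIN3 220HA members, against 4.06 and 4.50 in the rest. The lowest and highest members were 1.33 and 12.2 for SIN3 187HA, and 1.31 and 17.6 for SIN3 220HA, so the members overlapped the rest over most of their range. By stretch, the medians ran from 2.50 (3L) to 3.73 (3R) for SIN3 187HA and from 2.59 (3L) to 4.11 (3R) for SIN3 220HA. The median width of the members was 394.5 bp and 490 bp, against 537 bp and 621 bp in the rest. In the 3R stretch it was 534 bp for SIN3 187HA, close to the rest, and 713 bp for SIN3 220HA, above it. Chromosome 4 had a median width of 312 bp for SIN3 187HA, and 16 of its 46 peaks (34.8%, against 15.6% of the rest) were under 250 bp. For SIN3 220HA its median was 490 bp, equal to that of all members. There 10 of 55 peaks (18.2%, against 12.7% of the rest) were under 250 bp.

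**Figure D2:**
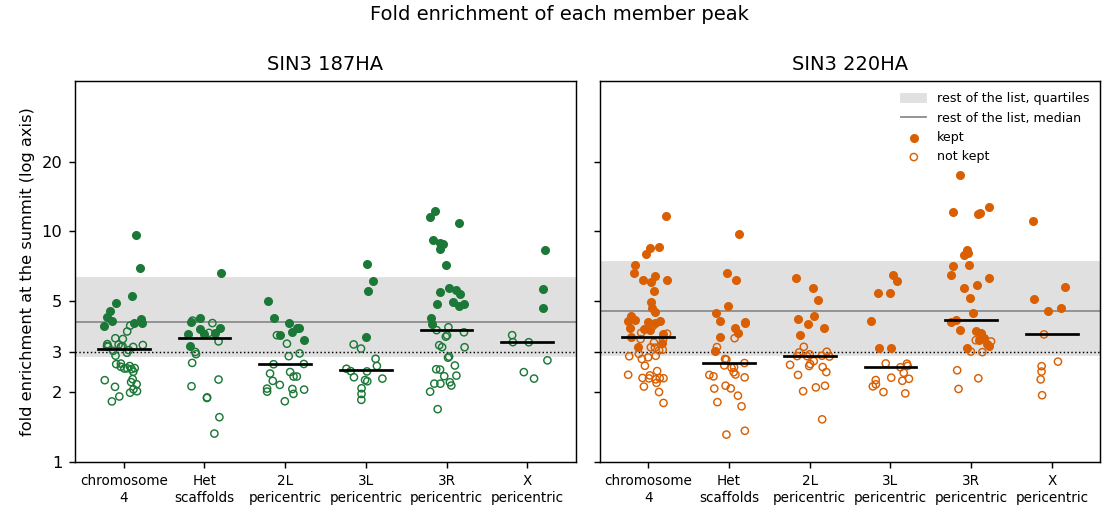
Fold enrichment at the summit (log axis) of each member peak by stretch, with SIN3 187HA on the left and SIN3 220HA on the right. Filled points were kept and open points were not, short black lines are medians, the grey band and line are the quartiles and median of the rest of each list, and the dotted line is 3-fold. The stretch medians of every compartment lay below the median of the rest (4.06 and 4.50), while single peaks reached 12.2 and 17.6.

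Chromosome 4 had a small number of strong sites, and the strongest was the same in both lists. At 4:89718-91226 the SIN3 187HA peak was 9.70-fold enriched with 178 reads over a background of 17.5, and the SIN3 220HA peak at 4:89723-91227 was 11.7-fold enriched with 469 reads over 39.1. These ranked 712 of 9011 and 762 of 8862. Next came a broad site at 4:577517-579647, 2131 bp wide and 6.91-fold enriched for SIN3 187HA. The SIN3 220HA peak there, 4:577471-579850, was 2380 bp wide and 8.53-fold enriched, but its summit lay 1399 bp from that of SIN3 187HA. At 4:680150-681387 SIN3 187HA was 5.26-fold enriched, and SIN3 220HA was 8.48-fold enriched at 4:680399-681590, with the summits 3 bp apart. The remaining kept SIN3 187HA peaks among the 5 highest of chromosome 4 were 4:528125-528519 (4.90-fold) and 4:328471-328974 (4.50-fold), and the last of these was lower for SIN3 220HA (3.16-fold).

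A cluster on chromosome 4 held 4 kept SIN3 220HA peaks in a row, between 521936 and 529418, and 1 kept SIN3 187HA peak. The first, 4:521936-522795, was 7.15-fold enriched, and the SIN3 187HA peak beneath it was 3.21-fold enriched and not kept. The second, 4:523035-523905, was 7.95-fold enriched with 241 reads over 29.4 and met no SIN3 187HA peak. The third, 4:525583-526791, was 3.60-fold enriched and also met none. The fourth, 4:527074-529418, was 2345 bp wide and 6.01-fold enriched, and it covered 2 narrower SIN3 187HA peaks of 4.90-fold and 2.65-fold, of which the first was kept. Across the cluster the SIN3 220HA backgrounds lay between 26.7 and 34.3 reads, near the 28.2 that was the median of the whole list.

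Near the distal end of chromosome 4, 2 sites stood over a high input. At 4:1291934-1292842 the SIN3 220HA pileup was 1013 reads over a background of 153 (6.59-fold), and the SIN3 187HA pileup was 388 over 96.1 (4.01-fold), and both peaks were kept. At 4:1286359-1286561 SIN3 220HA was 6.13-fold enriched over 97.1 reads and kept, while SIN3 187HA was 2.59-fold enriched over 62.8 and not kept. Elsewhere on chromosome 4 no background exceeded 45.1 reads for SIN3 220HA or 23.0 for SIN3 187HA. The chromosome as a whole had a background close to the rest, with medians of 17.5 against 18.8 for SIN3 187HA and 26.2 against 28.2 for SIN3 220HA.

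Kept peaks of both isoforms were spread along chromosome 4, in larger number for SIN3 220HA. Over the span of 1.23 Mb between the first and last member, 4 equal segments from the centromeric to the distal side held 2, 4, 3 and 2 kept SIN3 187HA peaks and 10, 7, 5 and 5 kept SIN3 220HA peaks. The first segment thus differed most in number, 2 against 10. Its unfiltered peaks were 9 and 13, of which the SIN3 220HA peaks had a median of 3.76-fold and the SIN3 187HA peaks of 3.18-fold. The longest gap between unfiltered SIN3 187HA peaks was 169187 bp, and between SIN3 220HA peaks 101914 bp.

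On the Het scaffolds the strongest site of each list was on XHet, where the input was low. The XHet peak at 60997-61771 was 6.58-fold enriched for SIN3 187HA over 12.2 reads, and at 60967-61772 it was 9.70-fold enriched for SIN3 220HA over 15.8. A second XHet site, 84404-85042, was 4.06-fold and 6.15-fold enriched and kept in both lists. Another, 74709-75837, was 6.60-fold enriched and kept for SIN3 220HA, and its SIN3 187HA counterpart of 4.10-fold was not kept. On the autosomal scaffolds no peak exceeded 4.19-fold for SIN3 187HA or 4.75-fold for SIN3 220HA, and both of these maxima were on 2RHet. All 9 kept SIN3 187HA peaks met a kept SIN3 220HA peak. On 2LHet they were 32278-33173 (3.79-fold) and 34632-34997 (3.59-fold), on 3LHet 1546275-1546488 (3.78-fold), and on 3RHet 1898937-1899402 (3.62-fold). The 3 on 2RHet were 4.19-fold, 3.58-fold and 3.19-fold enriched. A single Het site was kept for SIN3 220HA with no SIN3 187HA peak at all, 3LHet 2243520-2243952, at 4.02-fold.

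Het peaks included the weakest and the highest-input members. At 3RHet 790928-791107 the SIN3 187HA pileup of 437 reads stood over a background of 329 (1.33-fold), and the SIN3 220HA pileup of 1088 over 798 (1.36-fold), and neither was kept. On 2RHet a peak of 3.19-fold for SIN3 187HA and 3.80-fold for SIN3 220HA stood over 173 and 177 reads and was kept in both. Het peaks had median backgrounds of 25.7 reads (SIN3 187HA) and 45.6 reads (SIN3 220HA), against 18.8 and 28.2 in the rest. The 2L (26.4 and 36.6) and 3L (23.7 and 41.8) stretches were also above the rest, 3R (19.3 and 32.6) was close to it and X (14.9 and 18.9) was below it. A background of at least 4 times the list's median was found under 5 of 160 members (3.13%) and 6 of 179 (3.35%), against 0.689% and 0.576% of the rest. The part of the input in the kept shares was not tested.

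**Figure D3:**
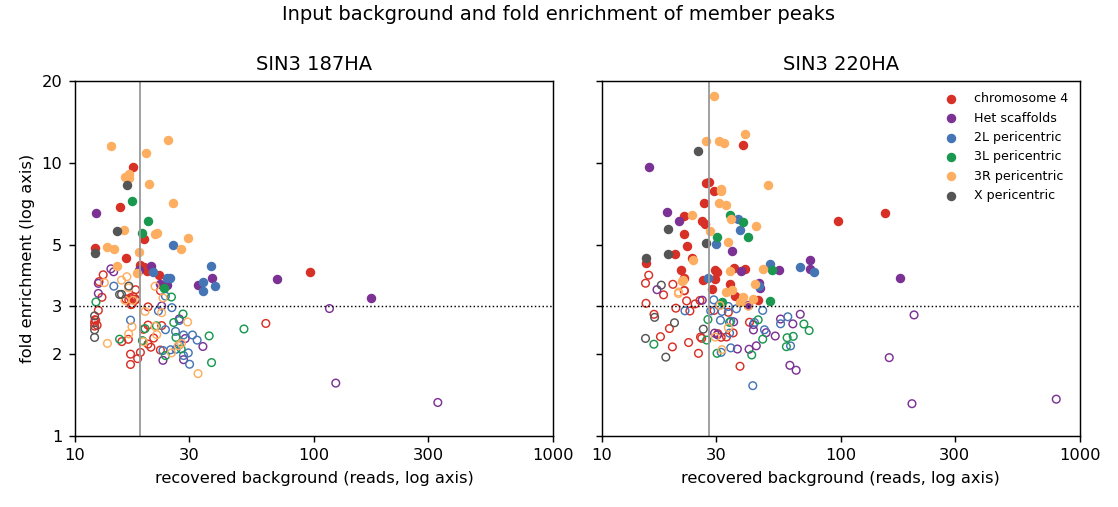
Fold enrichment (vertical log axis) against the background recovered at the summit (horizontal log axis, reads) for each member, with SIN3 187HA on the left and SIN3 220HA on the right. Colours mark the stretch, filled points were kept, the grey vertical line is the median background of the rest (18.8 and 28.2 reads) and the dotted line is 3-fold. The Het peaks (purple) reach the highest backgrounds, up to 329 and 798 reads, where folds were 1.33 and 1.36.

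The pericentric stretch of 3R held the strongest sites of all members. At 3R:136075-137841 SIN3 220HA was 17.6-fold enriched with 534 reads over 29.4, rank 184 of 8862, and SIN3 187HA was 10.9-fold enriched at 3R:136233-137715, with the summits 1 bp apart. At 3R:228348-230153 SIN3 187HA was 11.6-fold and SIN3 220HA 12.1-fold enriched. At 3R:253893-255529 SIN3 220HA was 12.8-fold and SIN3 187HA 9.16-fold enriched. The order was the other way at 3R:356335-357169, where SIN3 187HA was 12.2-fold enriched with 310 reads over 24.4, rank 319 of 9011, and SIN3 220HA 8.30-fold with 419 over 49.6. This stretch also held both of the highest SIN3 187HA sites that met no SIN3 220HA peak, 3R:204257-205142 (4.84-fold) and 3R:215828-216193 (4.20-fold). The only other kept SIN3 187HA member with no SIN3 220HA peak was 2L:22148617-22149477 (3.55-fold, over 38.7 reads).

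In the 2L and 3L stretches the named sites lay toward the side away from the centromere, and the X stretch had its strongest site there. On 3L the 3 highest SIN3 187HA peaks were 22902059-22904007 (6.12-fold), 22937850-22939280 (7.25-fold) and 22940280-22942548 (5.54-fold, the widest kept SIN3 187HA member at 2269 bp). The SIN3 220HA peaks there were 6.45-fold, 5.39-fold and 5.39-fold enriched, and another at 23118922-23119519 was 6.11-fold enriched against 3.50-fold for SIN3 187HA. On 2L the highest was 22168393-22169703, 5.00-fold for SIN3 187HA and 6.25-fold for SIN3 220HA. It was followed by 22121626-22122395 (3.999-fold and 5.68-fold), 22471529-22472272 (4.21-fold and 3.98-fold) and 22129808-22130230 (3.79-fold and 5.04-fold). On X the site at 21931299-21932016 was 8.35-fold and 11.1-fold enriched, ahead of 22255979-22257516 (5.65-fold and 5.11-fold) and 22415135-22415573 (4.67-fold and 4.66-fold). A further X site, 21941916-21942501, was 5.77-fold enriched and kept for SIN3 220HA, with a SIN3 187HA peak of 3.54-fold that was not kept. The X peak at 22134751-22135424 (4.49-fold) and the chromosome 4 peak at 76991-77388 (4.66-fold) were, after the one at 523035, the highest kept SIN3 220HA members with no SIN3 187HA peak.

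The peaks nearest to the limits of the stretches differed in distance and strength. On 2L the first SIN3 187HA and SIN3 220HA peaks inside the limit lay 214569 and 214567 bp from it, at 2.66-fold and 3.16-fold, neither kept. The nearest outside lay 105232 and 53558 bp away, at 5.996-fold (kept) and 3.40-fold (not kept). On the other arms the nearest peak inside lay between 2002 and 31312 bp from the limit. On 3L the peaks inside were 6.12-fold and 6.45-fold, both kept, and those outside 2.65-fold and 2.84-fold, not kept. On X they were 8.35-fold and 11.1-fold inside, both kept, and 3.05-fold (not kept) and 4.09-fold (kept) outside. On 3R they were 2.83-fold and 3.37-fold inside, neither kept, and 3.11-fold (not kept) and 4.27-fold (kept) outside.

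Compared with the arms, kept peaks were thinly spread in 3 of the 4 pericentric stretches and on chromosome 4. Lengths were measured from the first to the last member of each stretch, while the adjoining stretches ran up to the limit. On 2L this left out 214567 bp without a peak, so its densities are higher than if counted from the limit. On 3L there were 2.46 kept SIN3 187HA peaks per Mb (exact Poisson interval 0.669 to 6.29) and 4.30 kept SIN3 220HA peaks per Mb (1.73 to 8.85), against 28.9 and 41.7 in the adjoining stretch of equal length on the same arm. The intervals of these pairs did not overlap. On 2L there were 9.45 per Mb (4.08 to 18.6) in either list. The adjoining stretch had 27.2 (17.2 to 40.8) and 36.6 (24.9 to 52.0). With these lengths only the SIN3 220HA intervals did not overlap. On X the 6.19 and 10.3 per Mb overlapped the 12.4 and 22.7 next to it within their intervals. Chromosome 4 had 8.95 (4.47 to 16.02) and 21.97 (14.5 to 31.97), against 42.2 and 49.8 over the arms outside the stretches. The 3R stretch had 48.6 (28.8 to 76.9) and 70.2 (45.9 to 103), intervals that included the arms' values. The stretch adjoining it had 24.3 (11.1 to 46.2) and 40.5 (22.7 to 66.8), lower values whose intervals overlapped those of the 3R stretch. The share of each stretch in which reads can be placed uniquely was not measured.

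**Figure D4:**
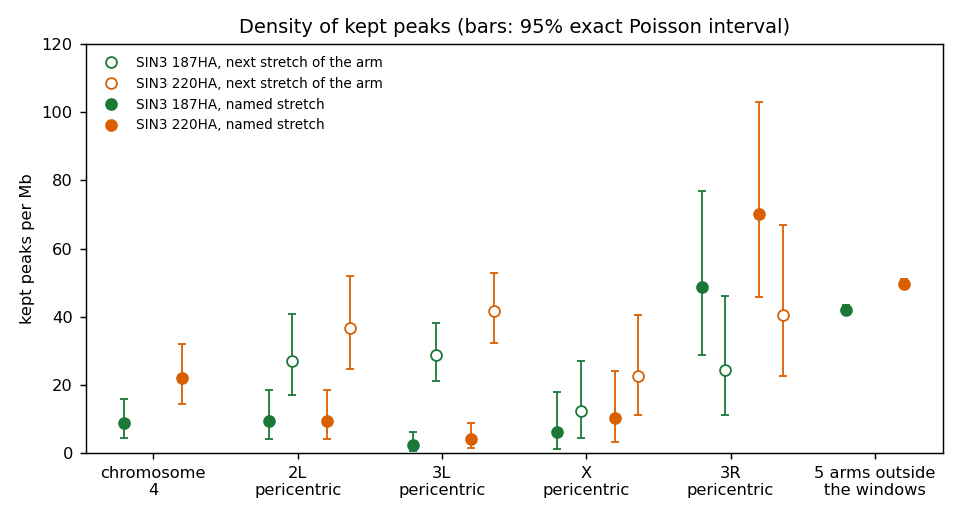
Kept peaks per Mb (vertical axis) on chromosome 4, in each pericentric stretch (filled points), in the adjoining stretch of equal length (open points) and over the 5 arms outside the windows, for SIN3 187HA (green) and SIN3 220HA (orange). Bars are exact 95% Poisson intervals; 2L, 3L, X and chromosome 4 lie below the arms' 42.2 and 49.8, and 3R does not.

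Most member peaks had a counterpart in the other list, at similar relative strength. At 1 bp, 124 of 160 SIN3 187HA members (77.5%, against 81.7% of the whole list) met a SIN3 220HA peak. In the other direction 122 of 179 (68.2%, against 79.5%) met a SIN3 187HA peak. Where 2 peaks were each other's best match there were 115 pairs. SIN3 220HA was the higher in 75 of them (65.2%), close to the 64.4% of pairs elsewhere. The median log2 ratio of fold enrichment (SIN3 220HA over SIN3 187HA) was 0.22 with quartiles of -0.10 and 0.48, against 0.20 over 6580 pairs elsewhere. On chromosome 4 it was 0.30 over 33 pairs with quartiles of -0.06 and 0.61. SIN3 220HA was the higher at 23 of these 33 (69.7%, against the same 64.4% elsewhere). SIN3 220HA peaks were wider, with a median width ratio of 1.17 over member pairs and 1.26 on chromosome 4, against 1.10 elsewhere. Summits lay a median of 33 bp apart, against 28 bp. Across the member pairs log2 fold enrichment had a Pearson correlation of 0.81 (Spearman 0.76), as a description over sites that share libraries.

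**Figure D5:**
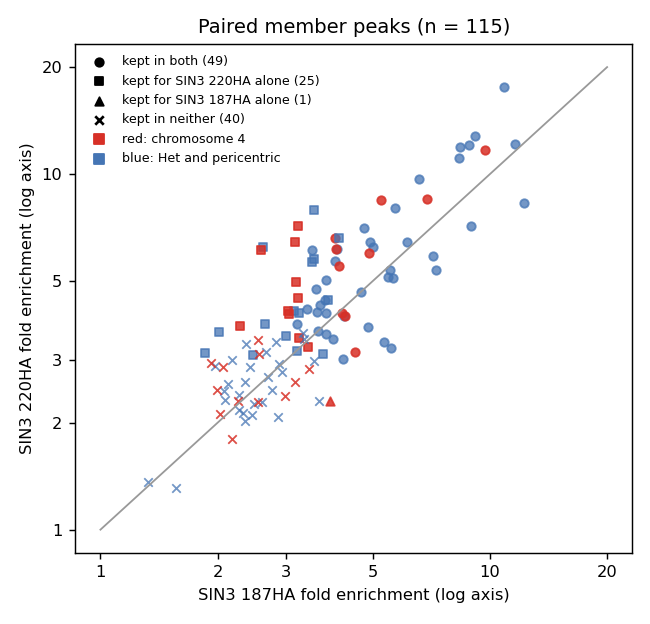
Fold enrichment of SIN3 220HA (vertical log axis) against SIN3 187HA (horizontal log axis) at the 115 member pairs, with chromosome 4 in red, the Het and pericentric sites in blue and the line of equality in grey. Circles were kept in both lists (49), squares for SIN3 220HA alone (25), the triangle for SIN3 187HA alone (1) and crosses in neither (40). SIN3 220HA was the higher at 75 pairs (65.2%, against 64.4% of pairs elsewhere).

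Among kept sites, chromosome 4 was more often kept for SIN3 220HA alone than the rest of the genome. A kept peak is called shared where kept peaks of the other list cover at least 50% of it. For SIN3 187HA 47 of 53 kept members were shared (88.7%, 77.0 to 95.7, against 86% of the whole list), and 10 of 11 on chromosome 4. For SIN3 220HA 46 of 85 were shared (54.1%, 43.0 to 65.0, against 68% of the whole list), a difference from the rest of -14.1 points (-24.7 to -3.82). On chromosome 4 only 9 of 27 kept SIN3 220HA peaks were shared (33.3%, 16.5 to 54.0), a difference of -34.9 points (-49.6 to -15.98). Weaker peaks are less often shared in the whole list, so the shares were also compared within 5 equal classes of fold enrichment. So weighted, the difference was -4.41 points (-14.9 to 6.04) over all members, which included 0, and -24.8 points (-42.3 to -7.39) on chromosome 4, which did not.

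By locus, 28 chromosome 4 loci were kept in either list, of which 10 were kept in both, 17 for SIN3 220HA alone and 1 for SIN3 187HA alone. The 60.7% kept for SIN3 220HA alone was above the 24.1% in the rest by 36.6 points (18.2 to 52.3). At 10 of these 17 loci a SIN3 187HA peak was called but not kept, and at 7 no SIN3 187HA peak was called. The lone SIN3 187HA locus was at 4:487846-488224, with 3.88-fold against 2.31-fold for SIN3 220HA. Over all members 35 of 88 loci were kept for SIN3 220HA alone (39.8%), 15.6 points above the rest (5.97 to 26.1), and 4 for SIN3 187HA alone (4.55%). The SIN3 220HA filtered list is the longer, with 5810 peaks against 4903. With both lists set to equal numbers by p-value, a comparison added after the data were seen, 10 of 21 chromosome 4 loci were kept for SIN3 220HA alone, 3 for SIN3 187HA alone and 8 in both. Over all members the counts at equal numbers were 21 of 74 for SIN3 220HA alone (28.4%), 11 for SIN3 187HA alone (14.9%) and 42 in both. In the rest the shares at equal numbers were 16.1% for SIN3 220HA alone and 14.0% for SIN3 187HA alone. These counts have no replicate check.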

How the data were processed

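HA ChIP and input DNA of both lines (2 replicates each) were sequenced, and the authors aligned reads to dm3 with Bowtie2, kept uniquely mapped reads, joined replicates and called peaks against input with MACS2 2.1.0, keeping duplicates. The deposited unfiltered lists give a score, fold enrichment (ratio), -log10 p-value and -log10 q-value per peak, and the authors' filtered lists hold the peaks that passed irreproducible discovery rate analysis and 3-fold enrichment. Depth per library was not used here.

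Members were taken by start position. The members, the stretches and the lists compared were chosen with earlier results of these data known. Pileup and background reads were recovered from fold enrichment, taken as (pileup + 1) over (background + 1), and the Poisson p-value: pileups came out whole, within 0.05 reads, for 9008 of 9011 and 8860 of 8862 peaks, and for every member. Backgrounds are on the scale MACS2 gave each list and are not depths. Overlaps were computed in Python 3.11.15 (pandas 2.3.3, scipy 1.17.1) and checked against bedtools 2.31.1 and on simulated data. Shares have exact Clopper-Pearson intervals, differences from the rest Newcombe intervals, densities exact Poisson intervals, and the differences within 5 classes of fold enrichment a normal interval over their variances. No p-values were computed. Peaks are named by a rule: per list, the 5 kept peaks of highest fold on chromosome 4, 3 per pericentric stretch, the kept Het peaks (up to 10, otherwise the 5 highest), and 3 each of the highest without a counterpart, the widest and the highest background. Others (the rest of the 521936-529418 cluster, the distal sites of chromosome 4, the lone SIN3 187HA locus and the 3LHet site) were chosen after their values were seen. Positions are 1-based.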

Additional observations from a re-analysis of the deposited data

How the results depend on the processing

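No paired analysis was possible because the authors joined the replicates before peak calling, and for the same reason no replicate could be left out. Of 100 alternatives over 35 results, 66 stayed near the reported value and 34 moved. Near meant within its interval or, for counts of loci, within a fixed ratio of the reported count. A reversed direction was looked for in the log2 ratio of fold enrichment alone, where 0 were seen. The signs of differences from the rest were not part of this check. The alternatives of 3-fold alone, equal numbers, a left-out 3R stretch and the chromosome 4 shared shares were chosen after seeing the data. Moving the limits of the stretches by 200 kb either way moved no share beyond its interval, and no peak lay on unplaced sequence, so leaving it out removed nothing. The kept share of members (SIN3 187HA, SIN3 220HA) was 23.8% and 34.1% at 4-fold, 13.8% and 21.8% at 5-fold, and 53.8% and 57.5% at 3-fold alone. The rest of each list stood at 49.2% and 56.3%, 37.6% and 44.5%, and 71.9% and 73.4% at these settings. On chromosome 4 it was 6.52% and 20% at 5-fold, and 54.3% and 67.3% at 3-fold alone. At equal numbers the SIN3 220HA shares fell to 35.2% of members and 32.7% of chromosome 4 peaks, against 55.7% of the rest, and 28.4% of member loci were kept for SIN3 220HA alone. The shared share for SIN3 187HA was 67.9% at 80% overlap, 75.5% for summits within 100 bp and 75.5% at equal numbers (rest 75.6%, 67.6% and 81.5%). It thus lay below the rest at 80% overlap and at equal numbers, though above it in the reported result and by summits. For SIN3 220HA it was 41.2% at 80% overlap and 71.8% against the unfiltered list (rest 47.1% and 82.7%). On chromosome 4 the SIN3 187HA share was 54.5% (6 of 11) at 80% overlap and 54.5% by summits. It was 100% against the unfiltered list (11 of 11) and at 5-fold (3 of 3). The SIN3 220HA share there was 22.2% (6 of 27) at 80% overlap, 22.2% by summits, 48.1% (13 of 27) against the unfiltered list and 38.9% (7 of 18) at equal numbers. The rest stood at 47.1%, 57.3%, 82.7% and 74.9% at these settings. Among kept members alone the median fold was 4.74 and 4.66 and the median width 744 and 713 bp. Unfiltered peaks per Mb were 37.4 and 44.8 on chromosome 4, 30.7 and 31.9 on 2L, and 11.05 and 12.3 on 3L. They were 18.6 and 22.7 on X and 105 and 89.2 on 3R, against 76.9 and 75.5 over the arms outside the stretches. Stricter thresholds keep fewer peaks by construction; the cause of the other moves was not tested. Small counts limit the X, 2L and 3L stretches and the 11 kept SIN3 187HA peaks of chromosome 4.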
